A study of Mus musculus with 6 samples.

Results

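TGF-beta and AMH signalling were followed through 10 genes, 3 ligands (Tgfb1, Tgfb2, Tgfb3), their receptors Tgfbr1 and Tgfbr2, the intracellular mediators Smad2, Smad3 and Smad7, and anti-Müllerian hormone with its receptor (Amh, Amhr2). They were chosen by name as parts of TGF-beta or AMH signalling, with earlier results of these data known. All 10 were found among the 54532 genes of the deposited expression table. Cultured wild-type mouse ovarian granulosa cells were sequenced without treatment (3 libraries) or 24 h after cyclophosphamide, an alkylating chemotherapy drug, had been added to the medium (3 libraries). The sample labels name an intraperitoneal injection for the treated libraries, whereas the protocol and the series design speak of drug given to cells already attached to the dish, and that account is followed here. The sources used here give no dose, and neither mouse strain nor age is labelled. Both groups were grown in DMEM/F12 with fetal bovine serum, and the cell line label names only ovarian granular cells.

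TGF-beta ligands are secreted in a latent complex, and once freed they bind the type II receptor TGFBR2, which activates the type I receptor TGFBR1. The active receptor phosphorylates SMAD2 and SMAD3, which enter the nucleus with SMAD4, while SMAD7 blocks the receptor as part of a negative feedback loop. AMH is a hormone of growing follicles that restrains follicle recruitment and FSH responsiveness. It binds its own type II receptor, AMHR2, and signals through the type I receptors shared with bone morphogenetic proteins and through SMAD1, SMAD5 and SMAD9.

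Libraries held 16458385 to 17607586 reads, and the 3 libraries of a group correlated at 0.982 to 0.985 on the log2 scale, against 0.913 to 0.923 between groups. Of 8 tested granulosa markers 1 was higher and 6 lower with cyclophosphamide. Summed levels were 2252 to 2447 FPKM (fragments per kilobase of gene length, scaled to a library size set by the submitters) in untreated and 1068 to 1380.5 FPKM in treated libraries. Most of these sums came from Inha, with means of 1984 FPKM in untreated and 905 FPKM in treated libraries. The 1 higher marker was Kitl (43.1 and 83.6 FPKM), and Wt1 was not called (1.61 and 1.62 FPKM). The aromatase gene Cyp19a1, a defining granulosa marker, held 3 reads in the untreated and 1 in the treated libraries, while Foxl2, which maintains granulosa fate, stood at 32.5 and 23.9 FPKM. Of 7 theca and stroma markers 2 were tested and 1, Ptch1, was higher (4.15 and 8.07 FPKM), with sums of 5.18–5.83 and 9.33–9.57 FPKM. Among the untested ones Cyp17a1 held more reads in treated libraries (1 and 8) and the others fewer. Of 10 macrophage markers 3 were tested, 2 higher and 1 lower, with sums of 6.17–7.01 and 8.99–11.3 FPKM. Csf1r went from 1.25 to 5.04 FPKM and Cd68 from 1.57 to 3.43, while Lyz2 went from 2.81 to 1.51. Each untested macrophage marker held fewer reads in treated than in untreated libraries, with at most 16 in a group. Of 7 endothelial markers 2 were tested and 0 called, with sums of 0.521–0.752 and 0.392–0.680 FPKM. Of 5 surface epithelium markers, all tested, 4 were lower, with sums of 106–119 and 49.8–73.1 FPKM. Nearly all of these sums came from Krt8 (means of 51.1 and 23.0 FPKM) and Krt18 (60.7 and 35.7). Krt19 (0.889 and 0.167) and Upk3b (0.692 and 0.0715) were low in both groups, and so was Msln (0.644 and 0.610), which was not called. Cldn5, an endothelial marker, was at 0 reads in every library, Insl3, a theca marker, held 1 read in all, and Ptprc, the pan-leukocyte marker, held 9 and 7 reads. Their part in the results below was not tested. In whole cultures fewer cells of a type and less RNA per cell cannot be told apart.

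The 3 ligand genes and both kinds of receptor fell with cyclophosphamide, and Smad3 and Smad7 rose. Of 9 members that passed the filter on low values, 2 were higher and 6 lower by limma at an adjusted p under 0.05, and 1, Smad2, was not called. Across all 14885 genes tested, 68.9% were called, 33.1% higher and 35.8% lower, so a call by itself was common in this comparison. The values of the untreated and treated libraries did not overlap for 8 of the 9, and for 73.1% of all genes tested. The median log2 fold change of the 9 genes was -0.46, beside -0.02 over all genes. Amh did not pass the filter.

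**Figure D1:**
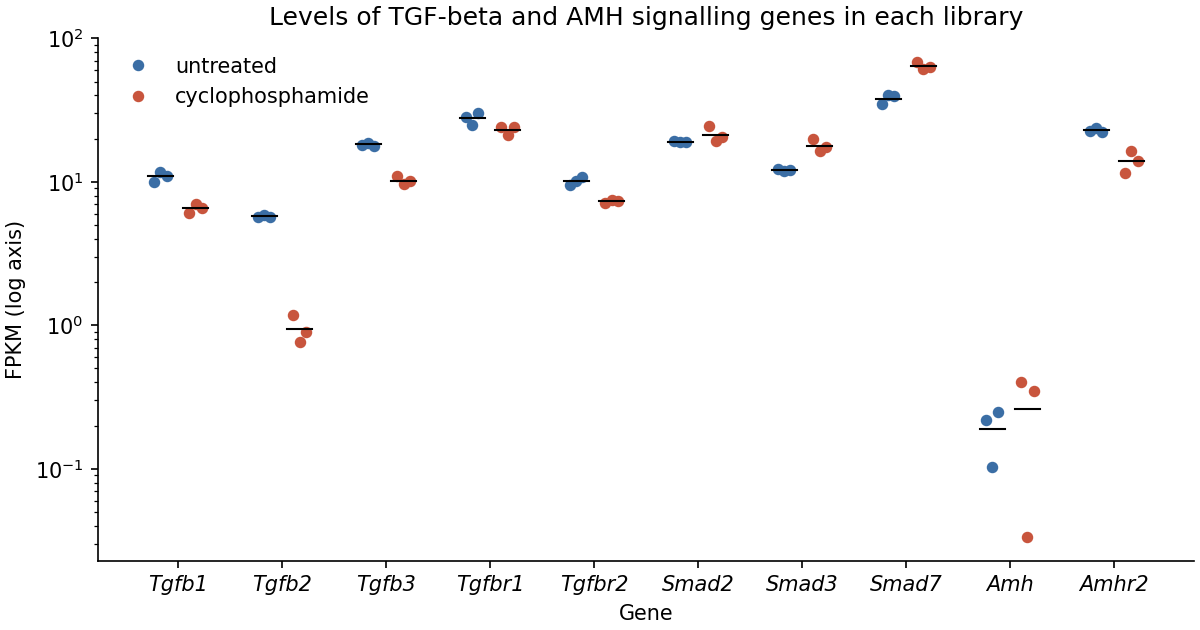
Level of each of the 10 genes in FPKM on a log axis, with 1 point per library (blue untreated, red cyclophosphamide, n = 3 each) and a bar at the group mean. The treated points of Tgfb2 lie near 1 FPKM and far below the untreated ones, the points of Smad7 lie highest in both groups, and those of Amh spread widely below 1 FPKM.

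Per gene length, Smad7 was the most abundant of the genes in both groups and Amh the least. In untreated cells the order of mean levels was Smad7, Tgfbr1, Amhr2, Smad2, Tgfb3, Smad3, Tgfb1, Tgfbr2, Tgfb2 and Amh, and among neighbours in this order the ranges of Tgfb1 and Tgfbr2 alone overlapped. In treated cells it was Smad7, Tgfbr1, Smad2, Smad3, Amhr2, Tgfb3, Tgfbr2, Tgfb1, Tgfb2 and Amh. There the ranges of Smad2 overlapped with those of Tgfbr1 and Smad3, and Amhr2 had moved from the third to the fifth place. The place of Smad2 depends on its gene model, since the deposited table gives it a length of 3549 bases and GENCODE M21 gives 8781 exonic bases for the same gene.

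Tgfb2 had the largest log2 fold change of the 9 genes tested. It encodes the TGF-beta isoform that needs the co-receptor betaglycan to bind its receptor well. Untreated libraries held 5.67, 5.85 and 5.69 FPKM (537, 591 and 557 reads), and treated libraries 1.17, 0.761 and 0.900 FPKM (112, 79 and 90 reads). Each treated library was thus far below each untreated one. Mean levels were 5.74 ± 0.10 and 0.945 ± 0.210 FPKM (SD, n = 3). On the log2(FPKM + 0.1) scale the fold change was -2.50 ± 0.16 (SE, here and below; limma, adjusted p = 6.1e-06), at percentile 1.97 of all genes tested. That scale understates the change of low genes, and with a pseudocount of 1 in place of 0.1 the log2 fold change was -1.80.

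Tgfb3, the most abundant ligand gene, and Tgfb1, the isoform best known from fibrosis and immune control, fell less. Tgfb3 stood at 18.1, 18.8 and 17.9 FPKM in untreated and 10.9, 9.65 and 10.1 FPKM in treated libraries (log2 fold change -0.83 ± 0.07; limma, adjusted p = 2.1e-05). Tgfb1 stood at 10.0, 11.6 and 11.1 FPKM in untreated and 6.06, 6.96 and 6.59 FPKM in treated libraries (log2 fold change -0.73 ± 0.09; limma, adjusted p = 0.00017). For both genes every treated library lay below every untreated one. Of the exonic bases of Tgfb3, 12.4% are shared with the opposite-strand genes Gm37804 and Gm48008, and 2.14% of those of Tgfb2 with Gm29491. The sources used here do not say whether reads were counted by strand, so reads of these pairs cannot be told apart.

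Summed over the 3 genes, ligand transcripts were 33.8, 36.3 and 34.7 FPKM in untreated and 18.1, 17.4 and 17.6 FPKM in treated libraries. The make-up of this sum also differed. Tgfb2 gave 16.4% ± 0.32 of it in untreated and 5.33% ± 1.06 in treated cells (SD, n = 3), while the share of Tgfb3 went from 52.4% ± 1.07 to 57.7% ± 2.29 and that of Tgfb1 from 31.2% ± 1.36 to 37.0% ± 3.35. For none of the 3 shares did the groups overlap. The FPKM ratio of Tgfb2 to Tgfb1 was 0.566, 0.503 and 0.514 in untreated and 0.194, 0.109 and 0.137 in treated libraries. For log2 ratios, here and below, 0.1 was added to the FPKM on each side before the logarithm. The mean log2 ratio so computed differed by -1.77 between groups, and by -1.89 with nothing added. It was lower in 3 of 3 treated libraries (exact two-sided permutation test, p = 0.10, the smallest that 3 against 3 libraries can give, and 0.20 adjusted over 6 ratios). The ratio of Tgfb3 to Tgfb1 overlapped between groups, with a difference of -0.11 on the log2 scale (exact permutation p = 0.40).

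**Figure D2:**
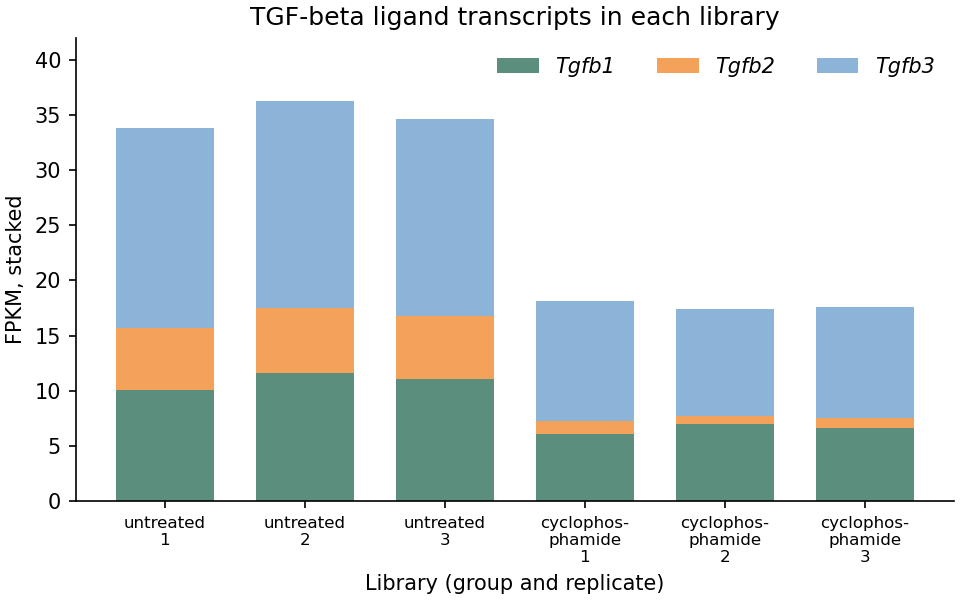
Stacked FPKM of Tgfb1, Tgfb2 and Tgfb3 in each of the 6 libraries, with replicate numbers under the bars. The bars of the treated libraries end between 17.4 and 18.1 FPKM, those of the untreated ones between 33.8 and 36.3, and the Tgfb2 segment shrinks most as a share of its untreated height, while the Tgfb3 segment loses the most FPKM.

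The promoters of the ligand genes that changed most and least are shown so that their make-up can be compared. RefSeq windows of build GRCm38.p6 matched 6 of the 10 genes, and the 250 bases before the annotated start are printed 5′ to 3′ on the gene's strand. Capitals mark every match to 11 motifs searched on both strands, none of which contains another. For SMAD proteins these were the palindrome GTCTAGAC and the element CAGAC. The others were the E-box CACGTG, the cyclic AMP response element TGACGTCA, the AP-1 site TGANTCA, the Sp1 GC box GGGCGG, the SF-1 site AAGGTCA, the GATA site AGATAA, the TEAD site GGAATG, the ATF4 site TGATGNAAT and the TATA box TATAAA. The window of Tgfb2 lies at chr1:186705990-186706239 (minus strand) and that of Tgfb1 at chr7:25686752-25687001 (plus strand).
Tgfb2: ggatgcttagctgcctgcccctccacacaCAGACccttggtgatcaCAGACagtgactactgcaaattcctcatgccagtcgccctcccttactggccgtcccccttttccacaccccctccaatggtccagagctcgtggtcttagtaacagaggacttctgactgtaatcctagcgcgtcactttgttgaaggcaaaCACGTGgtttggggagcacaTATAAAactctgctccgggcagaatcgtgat
Tgfb1: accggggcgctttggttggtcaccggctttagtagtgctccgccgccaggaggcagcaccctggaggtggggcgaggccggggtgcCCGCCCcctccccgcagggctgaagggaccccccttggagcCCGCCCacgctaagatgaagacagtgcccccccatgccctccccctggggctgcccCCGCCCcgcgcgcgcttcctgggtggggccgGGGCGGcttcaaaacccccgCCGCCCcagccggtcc
Counted from the start, the Tgfb2 window held a TATA box at -31, an E-box at -51 and CAGAC at -204 and -221. A TATA box match was found in 12.4% of 32851 windows of the same length, an E-box in 6.02% and CAGAC in 42.2%. The Tgfb1 window held 5 GC boxes, a motif found in 32.7% of windows, and none of the other motifs searched. Guanine and cytosine made up 53.6% of the Tgfb2 window and 75.2% of the Tgfb1 window, against a median of 52.4% over all windows. A match here describes letters only.

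Both TGF-beta receptor genes fell, with smaller log2 fold changes than the ligand genes; these differences between genes were not tested. Tgfbr2, the ligand-binding type II receptor, stood at 9.45, 10.2 and 10.8 FPKM in untreated and 7.12, 7.51 and 7.37 FPKM in treated libraries, with no overlap. Its log2 fold change was -0.46 ± 0.08 (limma, adjusted p = 0.00096). Tgfbr1, the signalling type I receptor that also serves the oocyte factor GDF9, stood at 28.4, 25.0 and 30.4 FPKM in untreated and 24.2, 21.1 and 24.0 FPKM in treated libraries. These groups lay close together, the highest treated library at 24.2 and the lowest untreated one at 25.0 FPKM. The log2 fold change of Tgfbr1 was -0.27 ± 0.09 (limma, adjusted p = 0.029), and the call was lost without untreated replicate 1 (limma, adjusted p = 0.080), without untreated replicate 3 (0.11), without cyclophosphamide replicate 2 (0.086) and with no filter on low values (0.063). The ratio of Tgfbr1 to Tgfbr2 was 2.45 to 3.01 in untreated and 2.81 to 3.40 in treated libraries, so the groups overlapped (log2 difference 0.19, exact permutation p = 0.30). In the table's coordinates, which equal GENCODE M21 on GRCm38, Tgfbr1 (ENSMUSG00000007613) spans chromosome 4 from 47353222 to 47414931 and Tgfbr2 (ENSMUSG00000032440) chromosome 9 from 116084293 to 116175360, both protein-coding. On the same build Tgfb1 (ENSMUSG00000002603) spans chromosome 7 from 25687002 to 25705077, Tgfb2 (ENSMUSG00000039239) chromosome 1 from 186622792 to 186705989 and Tgfb3 (ENSMUSG00000021253) chromosome 12 from 86056745 to 86079041.

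The inhibitory Smad7 and the receptor-activated Smad3 rose, while Smad2 was not called. Smad7, itself a gene that TGF-beta induces, stood at 34.7, 40.2 and 39.4 FPKM in untreated and 69.0, 61.1 and 62.9 FPKM in treated libraries. Every treated library was above every untreated one, and the log2 fold change was 0.75 ± 0.08 (limma, adjusted p = 7.9e-05). Smad3, the receptor-activated SMAD that binds DNA directly, stood at 12.3, 11.9 and 12.1 FPKM in untreated and 19.8, 16.4 and 17.4 FPKM in treated libraries, again with no overlap (log2 fold change 0.55 ± 0.08; limma, adjusted p = 0.00046). Smad2, its close relative, stood at 19.4, 18.9 and 18.9 FPKM in untreated and 24.4, 19.1 and 20.5 FPKM in treated libraries. The groups of Smad2 overlapped, and its log2 fold change of 0.15 had a 95% interval of -0.06 to 0.37 (limma, adjusted p = 0.17). Cyclophosphamide replicate 1 was the highest of the treated libraries for Smad2, Smad3 and Smad7, and also had the largest sum of FPKM over all genes (300505, against 275229 to 279748 in the other libraries). The part of this sum in these values was not tested.

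The balance among the SMAD transcripts differed between groups. The ratio of Smad3 to Smad2 was 0.633, 0.627 and 0.641 in untreated and 0.812, 0.856 and 0.849 in treated libraries. The ratio of Smad7 to the sum of Smad2 and Smad3 was 1.10, 1.30 and 1.27 in untreated and 1.56, 1.72 and 1.66 in treated libraries. Both were higher in 3 of 3 treated libraries, with log2 differences of 0.40 and 0.43 (exact two-sided permutation p = 0.10 for each, 0.20 adjusted over 6 ratios). The table places Smad7 (ENSMUSG00000025880) on chromosome 18 from 75367529 to 75395935, Smad2 (ENSMUSG00000024563) on the same chromosome from 76241580 to 76305731, and Smad3 (ENSMUSG00000032402) on chromosome 9 from 63646767 to 63757994. The ends given for Smad2 differ from those in GENCODE M21. The levels of both ratios, and the weight of Smad2 in the second, depend on the length given to Smad2.

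**Figure D3:**
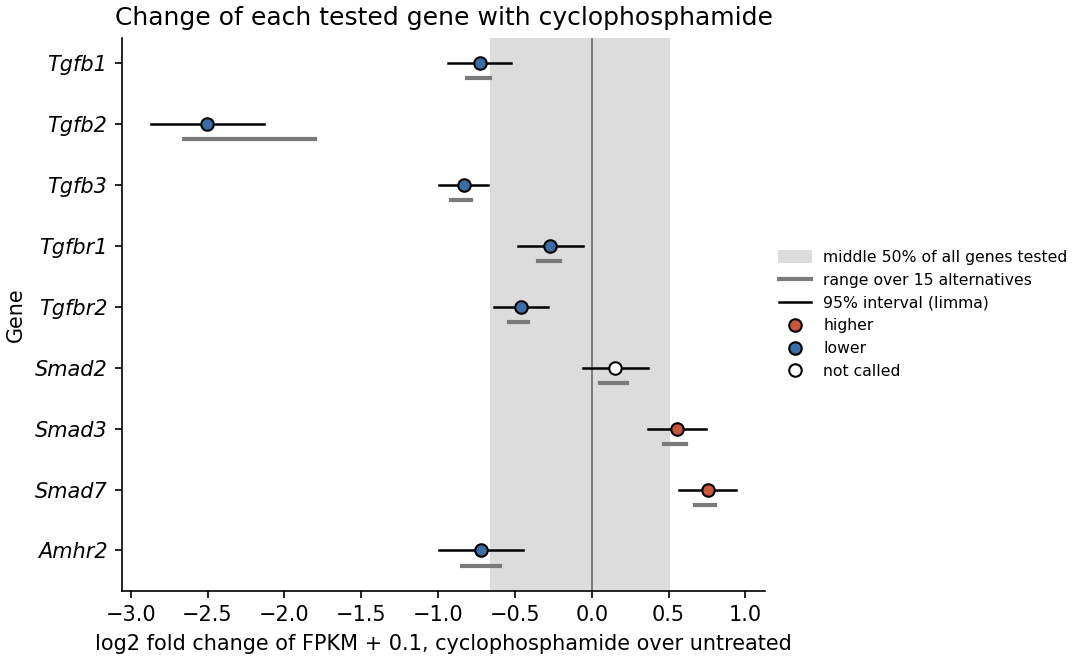
log2 fold change of the 9 tested genes (points, coloured by call) with the 95% interval from limma (black line), the range over 15 alternative analyses (grey line) and the middle 50% of all genes tested (grey band, -0.66 to 0.50). Tgfb2 lies far to the left of the band, Smad7 to its right, and the interval of Smad2 crosses 0.

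Amh was barely detected in either group, while its receptor gene was well measured. Amh held 6, 3 and 7 reads in untreated and 11, 1 and 10 reads in treated libraries, or 0.220, 0.103, 0.248, 0.400, 0.0334 and 0.347 FPKM. The groups overlapped, and the lowest value of all was in a treated library. Summed over each group, Amh had 0.311 RPM (reads scaled to library depth) in untreated (exact Poisson 95% interval 0.178 to 0.506) and 0.434 in treated cells (0.272 to 0.657), a ratio of 1.39 with an interval of 0.700 to 2.84 that covers counting error only. No difference in Amh was detected at this depth.

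Amhr2 fell with cyclophosphamide. It stood at 22.5, 23.8 and 22.4 FPKM in untreated and 11.6, 16.4 and 14.0 FPKM in treated libraries. All treated libraries were below the untreated ones, with cyclophosphamide replicate 1 lowest. Mean levels were 22.9 ± 0.80 and 14.0 ± 2.40 FPKM (SD, n = 3), and the log2 fold change was -0.72 ± 0.12 (limma, adjusted p = 0.00082). The ratio of Amh to Amhr2 per gene length was 0.0043 to 0.011 in untreated and 0.0020 to 0.035 in treated libraries, with overlap. With 0.1 added to each FPKM, a value similar to Amh itself, the log2 difference was 0.86 (exact two-sided permutation p = 0.40, also 0.40 adjusted over 6 ratios). With nothing added it was 0.63. Amhr2 (ENSMUSG00000023047) spans chromosome 15 from 102445367 to 102454633 and Amh (ENSMUSG00000035262) chromosome 10 from 80805243 to 80807648, both protein-coding.

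The Amhr2 promoter is shown because SF-1, encoded by Nr5a1, is a known regulator of this gene. The window covers the 250 bases before the RefSeq start on GRCm38.p6 (chr15:102445117-102445366, plus strand), with matches to the same motifs in capitals.
Amhr2: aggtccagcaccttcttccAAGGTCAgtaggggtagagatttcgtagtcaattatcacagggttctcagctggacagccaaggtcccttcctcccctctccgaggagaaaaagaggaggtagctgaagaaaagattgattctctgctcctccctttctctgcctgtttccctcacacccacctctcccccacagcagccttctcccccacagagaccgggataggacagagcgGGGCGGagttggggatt
An SF-1 motif begins at -231 from the start, and 4.08% of all windows held one. A GC box begins at -17. Nr5a1 itself rose in these libraries, from 38.3, 44.2 and 45.4 FPKM in untreated to 53.4, 53.5 and 52.9 FPKM in treated libraries (log2 fold change 0.33 ± 0.08; limma, adjusted p = 0.0052). Nr5a2, of the same gene family, fell from 29.7 to 8.93 FPKM. The part of either gene in the Amhr2 result was not tested.

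The rest of the pathway was described through 7 lists with 110 genes, of which 102 were tested. In all, 28 were higher, 47 lower and 27 not called. The background for this count and for each list below is that of all genes tested, 68.9% called, 33.1% higher and 35.8% lower. Among genes that hold ligand latent or free it, calls were all lower. Of 20 tested latency and activation genes 13 were lower and 0 higher, with a median log2 fold change of -0.71; without cyclophosphamide replicate 2, 1 was higher. Thbs1, whose product thrombospondin 1 activates latent TGF-beta, fell from 1993 to 47.1 FPKM (log2 fold change -5.50 ± 0.28; limma, adjusted p = 2.6e-06). Fbn1, which encodes the fibrillin that anchors latent complexes in the matrix, and the integrin gene Itgb5 had log2 fold changes of -2.22 ± 0.12 and -1.89 ± 0.10. The furin gene, Furin, whose protease cleaves the ligand precursors, was not called (25.0 and 25.3 FPKM). Ltbp1 and Ltbp3, which encode latent binding proteins, fell as well (-1.48 and -0.67). Furin, Ltbp1 and Ltbp3 are named here after their values were seen.

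Among genes of SMAD partners and SMAD turnover, calls were all higher, 12 of 16 tested with 4 not called (median 0.72); with upper quartile scaling 1 was lower. The co-repressor gene Ski rose from 24.4 to 40.1 FPKM (log2 fold change 0.71 ± 0.05; limma, adjusted p = 1.3e-05). Smurf1, a ubiquitin ligase gene whose product SMAD7 brings to the receptor, rose by 0.86 ± 0.07, and Rnf111, which encodes a ligase that degrades SMAD7 and SKI, by 0.81 ± 0.07. Smad4, the shared partner of the receptor-activated SMADs, stood at 37.6, 34.4 and 36.7 FPKM in untreated and 63.6, 56.2 and 61.4 FPKM in treated libraries (log2 fold change 0.74; limma, adjusted p = 4.3e-05), and was named after its values were seen. The genes that rose thus encode both partners and inhibitors of the receptor-activated SMADs.

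**Figure D4:**
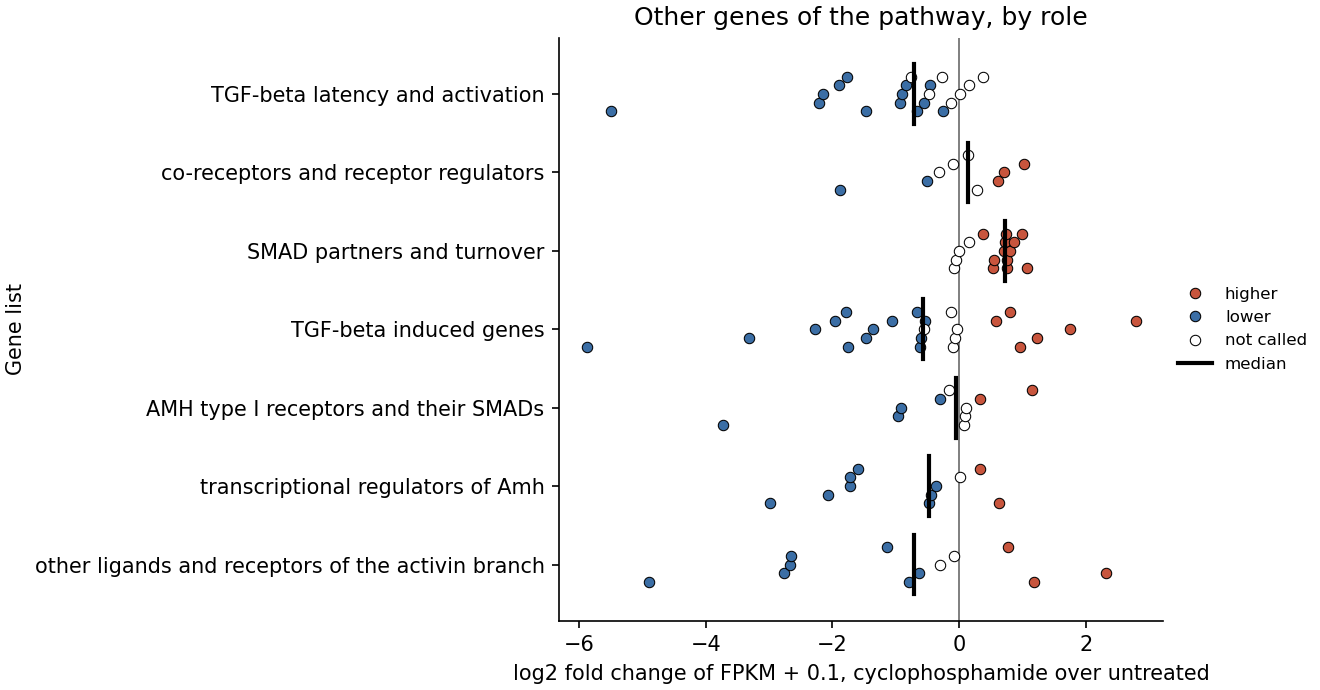
log2 fold change of each tested gene in the 7 pathway lists (points, red higher, blue lower, white not called) with the median of each list as a black bar. The points of the SMAD partners lie at or to the right of 0 with 2 small exceptions that were not called, and the called points of the latency genes all lie to the left.

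Co-receptors and receptor regulators moved both ways, with 3 of 9 higher, 2 lower and 4 not called. Dab2, an adaptor that links the receptors to SMADs, fell from 43.7 to 11.9 FPKM (log2 fold change -1.88 ± 0.11; limma, adjusted p = 5.1e-06), and Vasn, which encodes a TGF-beta trap, had a log2 fold change of -0.51 ± 0.06. Cd109, a TGF-beta co-receptor gene, rose by 1.02 ± 0.10, and Zfyve9, which encodes the SMAD anchor SARA, by 0.70 ± 0.07. The betaglycan gene Tgfbr3, named after its values were seen, stood at 1.58 to 2.21 FPKM in untreated and 1.37 to 1.75 FPKM in treated libraries and was not called.

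Genes that TGF-beta induces in many cell types also moved both ways, with 13 of 24 lower and 6 higher (median -0.57). Ctgf, whose product is a secreted matrix-associated protein, went from 193 to 3.35 FPKM (log2 fold change -5.88 ± 0.24; limma, adjusted p = 1.1e-06), and Spsb1, a ubiquitin ligase adaptor gene, had a log2 fold change of -1.79 ± 0.10. Tgif1, a SMAD co-repressor gene, rose by 1.76 ± 0.07, Zeb2, a transcriptional repressor gene, by 0.80 ± 0.07 and the cell cycle inhibitor Cdkn1a by 1.22 ± 0.10. Cdkn1a is also a p53 target. Acta2 and Tagln, on this list and named after their values were seen, are also genes of smooth muscle and fell. Of 5 tested smooth muscle and pericyte markers, Acta2 among them, 3 were lower and 1, Notch3, was higher. The 6 listed markers summed to 81.9–93.2 FPKM in untreated and 13.0–23.5 FPKM in treated libraries. Without Acta2 the sum was 3.35–4.22 and 7.02–8.53 FPKM, of which Notch3 gave means of 1.75 and 6.67 FPKM. Of the 4 tested markers in that sum 2 were lower and 1, Notch3, was higher, and Rgs5 held 1 read in all. The part of such cells in this count was not tested.

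Downstream of AMH, the type I receptor Bmpr1b fell and Smad1 rose. Of 10 tested genes 2 were higher, 4 lower and 4 not called (median -0.04). Bmpr1b stood at 10.2, 9.56 and 10.8 FPKM in untreated and 0.591, 0.692 and 0.748 FPKM in treated libraries (log2 fold change -3.73 ± 0.12; limma, adjusted p = 4.9e-07), and with a pseudocount of 1 the log2 fold change was -2.73. Of the other type I receptor genes among these 10, Bmpr1a fell from 33.9 to 27.5 FPKM (log2 fold change -0.30). Acvr1 stood at 8.98 and 9.59 FPKM and was not called. Both are named after their values were seen. Smad1 rose from 7.10 to 16.0 FPKM (1.15 ± 0.09) and Smad9 by 0.34 ± 0.08. Id1, a target of this branch, had a log2 fold change of -0.91 ± 0.09. Among genes that regulate Amh, 8 of 11 tested were lower and 2 higher (median -0.48). The nuclear receptor genes Esr2 and Nr5a2 and the GATA4 cofactor gene Zfpm2 had log2 fold changes of -2.99 ± 0.13, -1.72 ± 0.07 and -1.60 ± 0.11, while Nr5a1 rose as given above.

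In the list of other activin-branch genes, which also holds antagonists, 7 of 12 tested were lower and 3 higher (median -0.71). The activin and inhibin subunit genes Inhbb and Inhba had log2 fold changes of -4.90 ± 0.18 and -2.67 ± 0.09, and Gdf11, another ligand gene, one of -2.65 ± 0.12 (limma, adjusted p = 6.7e-07, 5.1e-07 and 1.7e-06). The other genes that fell are named after their values were seen. They were the type II receptor gene Bmpr2 (-0.79), the activin-binding antagonists Fst (-2.76) and Fstl3 (-0.63), and Inha (-1.14), whose product turns activin subunits into inhibin, an activin antagonist. The 3 genes that rose were the activin type II receptors Acvr2b (1.19 ± 0.10) and Acvr2a (0.77 ± 0.14), and Gdf9 (2.32 ± 0.15), a ligand gene of the oocyte. Gdf9 held 41 reads in untreated and 253 in treated libraries. With a pseudocount of 1 its log2 fold change was 1.28, and with 0.5 it was 1.69. Gdf9 is itself 1 of 10 oocyte markers, which summed to 0.676–0.879 FPKM in untreated and 2.47–4.07 FPKM in treated libraries. The 9 markers other than Gdf9 summed to 0.281–0.457 and 0.381–1.59 FPKM, with overlap between groups, and the 1 of them that was tested, Ddx4, was not called. Figla was at 0 in every library, and Zp2 and Zp3 held 0 reads in untreated and 9 and 7 in treated libraries. Their part in the Gdf9 result was not tested.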

How the data were processed

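Poly-T selected RNA of 6 libraries was sequenced, per the labels' protocols. The submitters' processing notes list CASAVA, HISAT2 (version 2.0.5) and build GRCm39, and the sources used here name no counting tool, strand setting or annotation. The deposited values are FPKM made by the authors, although the table is named as counts, and every value above 0 times gene length was a whole multiple of 1 step (tolerance 0.01 reads), which gave the reads. The library size implied by that step was 0.975 to 1.04 times the recovered reads of the library. The FPKM are thus not scaled to these read totals alone, and the sources used here do not name the scaling. Start and end of 98.3% of 54409 shared gene IDs equal GENCODE M21, so coordinates are read as GRCm38.

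Each of 14885 genes with at least 10 reads in 3 libraries and 15 in all was tested with limma version 3.58.1 under R version 4.3.3 (log2(FPKM + 0.1) as the response, trended prior variance), two-sided, adjusted by Benjamini-Hochberg over all genes at 0.05. The code of the fit was tried on simulated reads in which few genes changed, unlike here, so that trial does not bear on these calls. Log2 ratios were taken after adding 0.1 to the FPKM on each side, and used exact permutation tests in SciPy version 1.17.1. Counting intervals are 95%. Groups and replicate numbers come from sample titles, and nothing says that replicates came from separate cultures or animals, so p-values reflect the spread among these libraries alone and that spread may be technical. No 2 libraries held the same values. The members, lists and tests were chosen with earlier results of these data known. All 10 members are named, and from each list the 3 called genes with the smallest p and up to 3 called against the majority of the list, except for an item that is not reported here. Alternatives were 2 pseudocounts, 2 filters, 3 scalings, limma-voom on the reads, the replicate number as a block, and leaving out each library.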

Additional observations from a re-analysis of the deposited data

How the results depend on the processing

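Among the 9 tested members, calls and directions held under all 15 alternatives except for Tgfbr1, whose 4 lost calls are given with its result and whose log2 fold change ranged from -0.35 to -0.20. Thus 5 or 6 members were lower and 2 higher in each. The changes of Tgfb2 ranged from -2.65 to -1.80, those of Smad7 from 0.67 to 0.80, and those of Amhr2 from -0.84 to -0.59. Over the 7 lists, 28 or 29 genes were higher and 43 to 51 lower. Over all genes, 4417 to 5247 were higher and 4160 to 5820 lower. Leaving out 1 library at a time gave log2 ratio differences of 0.38 to 1.58 for Amh to Amhr2, -1.98 to -1.60 for Tgfb2 to Tgfb1, 0.39 to 0.42 for Smad3 to Smad2 and 0.35 to 0.48 for Smad7 to the sum of Smad2 and Smad3. With all libraries and nothing added before the logarithm, these 4 differences were 0.63, -1.89, 0.40 and 0.43. With no filter, the log2 fold change of Amh was 0.13 (adjusted p = 0.88 by limma). limma-voom on the recovered reads called 5157 genes higher and 5294 lower. Same-numbered libraries did not deviate together (correlations -0.08, 0.005 and -0.03, against -0.09 to 0.12 for differently numbered ones). No pairing by number was seen, but so few libraries cannot exclude it. With the replicate number as a block 4772 genes were higher and 5165 lower, with 2 and 6 of the members and 28 and 48 of the list genes. With 3 libraries a group the ratios cannot pass a threshold of 0.05, and depth limits Amh.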

Other observations

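The members differ widely in genomic span, from 2.41 kb for Amh and 9.27 kb for Amhr2 to 83.2 kb for Tgfb2, 91.1 kb for Tgfbr2 and 111 kb for Smad3. Over the 9 tested members span and log2 fold change had Pearson r = 0.05 (span on a log10 scale) and Spearman rho = 0.30, given as a description across genes that share the same libraries. The 1641 tested protein-coding genes with spans from just below that of Tgfbr1 (61.7 kb) to just above that of Smad3 had a median log2 fold change of -0.06, and all tested protein-coding genes had the same rounded value.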
